A study of Mus musculus with 12 samples.

Results

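The genes described here are 10 protein-coding genes of mouse: Errfi1 and 9 immediate early genes, Fos, Jun, Junb, Egr1, Ier2, Atf3, Gadd45b, Klf6 and Btg2. They were examined among 21911 protein-coding genes of the GENCODE M21 annotation on mm10, and every peak of histone H3 acetylated at lysine 9 (H3K9ac) that overlapped the gene body or lay within 5 kb of the gene start was taken for each of them. The immediate early genes were named by what they are, though with earlier results of these data known. Errfi1 was chosen by its measured peak positions: the acetylated domains at its start had no base in common among the 4 parental peak lists. The parental values of Errfi1 are therefore given as a description without a test.

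Livers of adult mice were analyzed by H3K9ac chromatin immunoprecipitation and sequencing (ChIP-seq), and the question was how the mark differs between C57BL/6J (B6), the strain of the reference genome, and MSM/Ms (MSM), an inbred strain from Japanese wild mice. There were 2 B6 livers, 2 MSM livers and 1 liver from each of the reciprocal F1 crosses, named F1 BM where the mother was B6 and F1 MB where she was MSM. The labels name no treatment or transgene and no sex, and whole liver was used without sorting of cells. In whole tissue, a shorter acetylated region cannot be told apart from fewer cells that carry the mark.

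Immediate early genes are transcribed within minutes of a stimulus, before any new protein is made, and their promoters are kept accessible and acetylated in resting cells. Many encode transcription factors, and in liver they are known for their rapid induction after partial hepatectomy and by cell dissociation, growth factors and feeding. Errfi1, also called Mig6, is induced by the same signals and encodes a cytoplasmic protein that binds the kinase domain of the epidermal growth factor receptor (EGFR) and its relatives and blocks their activity. H3K9ac sits on the nucleosomes that flank active promoters and on active enhancers.

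The promoter sequences of the genes on which the results turn are shown first, because the position of the start decides how the peaks of Errfi1 are read. Each sequence is from RefSeq on GRCm38.p6, runs 5′ to 3′ on the strand of the gene and covers 250 bases before and 50 bases from the start. Capitals mark motif matches on either strand. The motifs searched were the cAMP response element TGACGTCA and its core TGACG, which was also counted inside the full element. The AP-1 site TGACTCA and the CArG box of serum response factor were searched as well. The TATA box was read as TATAAA, and the fifth kind was the CCAAT box, which appears inverted where it lies on the other strand. Errfi1 has 2 RefSeq starts, the upstream one at chr4:150853546-150853845 (+ strand) and the downstream one at chr4:150854820-150855119 (+ strand). Fos is at chr12:85473640-85473939 (+ strand) and Btg2 at chr1:134079106-134079405 (- strand).
Errfi1 upstream start: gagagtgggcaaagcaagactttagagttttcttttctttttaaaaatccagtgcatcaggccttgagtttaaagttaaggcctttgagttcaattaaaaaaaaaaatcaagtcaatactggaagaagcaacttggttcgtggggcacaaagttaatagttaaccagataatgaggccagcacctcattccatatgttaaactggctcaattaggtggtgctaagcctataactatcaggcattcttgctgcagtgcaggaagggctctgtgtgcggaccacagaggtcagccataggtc
Errfi1 downstream start: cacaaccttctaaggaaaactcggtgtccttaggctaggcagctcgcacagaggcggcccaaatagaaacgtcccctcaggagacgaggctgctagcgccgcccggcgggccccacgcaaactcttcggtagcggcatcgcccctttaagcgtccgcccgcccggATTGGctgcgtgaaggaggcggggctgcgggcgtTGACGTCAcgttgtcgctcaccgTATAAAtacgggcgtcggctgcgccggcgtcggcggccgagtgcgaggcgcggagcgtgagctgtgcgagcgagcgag
Fos: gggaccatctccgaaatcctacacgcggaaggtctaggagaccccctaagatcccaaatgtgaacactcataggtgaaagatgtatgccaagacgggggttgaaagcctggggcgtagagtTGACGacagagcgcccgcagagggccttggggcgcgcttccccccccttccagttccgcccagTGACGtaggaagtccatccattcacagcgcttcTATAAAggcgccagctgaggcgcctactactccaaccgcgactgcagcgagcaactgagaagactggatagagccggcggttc
Btg2: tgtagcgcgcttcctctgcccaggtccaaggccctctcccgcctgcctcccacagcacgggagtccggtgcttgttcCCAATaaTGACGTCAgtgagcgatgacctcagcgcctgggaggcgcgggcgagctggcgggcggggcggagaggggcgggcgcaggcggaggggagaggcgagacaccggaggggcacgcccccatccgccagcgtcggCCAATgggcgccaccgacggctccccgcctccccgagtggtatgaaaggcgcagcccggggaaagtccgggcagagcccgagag

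The Errfi1 starts lay in unlike sequence. The upstream promoter held 2 CpG dinucleotides, more than 14.1% of the 32851 RefSeq promoters, and none of the motifs. The downstream promoter, whose start was 1151 bp inside the GENCODE gene, held 41 CpG, more than 96.5% of promoters, with TGACGTCA at -51, TATAAA at -28 and an inverted CCAAT at -85 from the start. Motifs were counted in the promoters of 8 of the 10 genes, 9 promoters in all. Egr1 was left out of this count without a search of its promoter, and Ier2 had no promoter among them. TGACGTCA was present in 2 of the 9 (downstream Errfi1 and Btg2) against 1.79% of all promoters, TGACG in 5 of 9 against 20.8%, TATAAA in 4 of 9 against 13.6% and CCAAT in 7 of 9 against 37.4%. TGACTCA (5.2% of all promoters) and the CArG box (1.63%) were in none of the 9. The sequence matches are descriptions of these windows only.

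The 6 peak lists differed in size before any gene was considered. B6 replicate 1 had the most peaks (22968, covering 16.02 Mb) and B6 replicate 2 the fewest (11619, covering 6.276 Mb), and the MSM lists were alike (17310 and 17584 peaks, 9.664 and 9.686 Mb). F1 BM had 20173 peaks over 12.26 Mb and F1 MB 13235 over 7.456 Mb. Peaks on chromosome Y numbered 0 in both B6 lists and between 1 and 9 in the other lists. Read depth was not used here, since peak lists carry no counts. All 6 hepatocyte markers carried a peak in every list. The 5 endothelial markers summed to 6571 and 0 bp of acetylated sequence in the B6 lists, 956 and 3026 bp in the MSM lists, 6428 bp in F1 BM and 1240 bp in F1 MB. Of the 30 markers of other cell types, 24 had no peak in any list, among them all those of neutrophils, exocrine pancreas and skeletal muscle. The 5 lymphocyte markers summed to 762 and 291 bp in B6 and to 0 bp in both MSM lists. They summed to 491 bp in F1 BM and 264 bp in F1 MB. Cd4 had 449 and 291 bp in B6, 0 bp in both MSM lists, 491 bp in F1 BM and 264 bp in F1 MB. Both B6 and both hybrid lists thus exceeded both MSM lists at Cd4, as they did at Errfi1. The part of lymphocytes in the values of Errfi1 was not tested. Of the 5 Kupffer cell and macrophage markers, Clec4f, Adgre1 and Cd5l had no peak, Csf1r had 301 bp in B6 replicate 1 alone, and Cd68 had a peak in all 6 lists, of 1415 and 276 bp in B6, 541 and 357 bp in MSM, 332 bp in F1 BM and 268 bp in F1 MB.

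Most of the immediate early genes were acetylated in every liver. A peak lay in the gene window in all 6 lists for 6 of the 9 immediate early genes (Fos, Jun, Junb, Ier2, Klf6 and Btg2), against 28.5% of all protein-coding genes. The same 6 genes had a peak within 1 kb of the gene start in all lists (23.6% of all genes). Errfi1 also had both, and its parental peaks were part of how it was chosen. Atf3, Gadd45b and Egr1 had a peak in 3, 2 and 1 of the lists. None of the 9 immediate early genes was without any peak, whereas 47.2% of all genes were. Egr1 had only a pair of weak peaks in B6 replicate 1, the longest list. Over the 9 immediate early genes, those without a peak counted as 0, the median acetylated length within 5 kb of the start was 1318 and 633 bp in the B6 lists, 921 and 1632 bp in the MSM lists, 762 bp in F1 BM and 627 bp in F1 MB. Over all genes with a peak there, the medians were 1053 and 628 bp, 730 and 734 bp, 825 bp and 657 bp in the same order. These leave out genes without a peak, which counted as 0 above, so the medians cannot be ranked against each other.

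Acetylated length, the number of bases under peaks in the gene window, was compared between the strains. Both B6 livers exceeded both MSM livers at 0 of the 9 immediate early genes, and this pattern was found in 11.6% of the 11446 genes with a parental peak. The opposite pattern, both MSM above both B6, was found at 0 of the 9 and in 4.97% of all genes. Errfi1, which was chosen by its parental peaks, had the first pattern. The exact two-sided permutation test used here could not pass 0.05 at any gene, because 2 livers against 2 give a p of 0.3333 at the least. Without B6 replicate 2, 9 of the 10 genes, Errfi1 among them, and 84.16% of all genes were longer in B6. Without B6 replicate 1, 4 of the 10 (Fos, Jun, Ier2 and Klf6) and 61.24% of all genes were longer in MSM. At the highest peak by fold enrichment, the strains overlapped at the 7 genes with a peak in all 6 lists. Over the 11446 genes with a parental peak, 9.29% were higher in B6 and 8.57% in MSM without overlap. At Atf3, Gadd45b and Egr1 fold enrichment could not be compared in this way, because some parental lists had no peak there. B6 replicate 1 had the longest acetylated sequence of the 4 parental livers at 8 of the 9 immediate early genes, the exception being Fos, and at 83.8% of all genes with a parental peak.

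**Figure D1:**
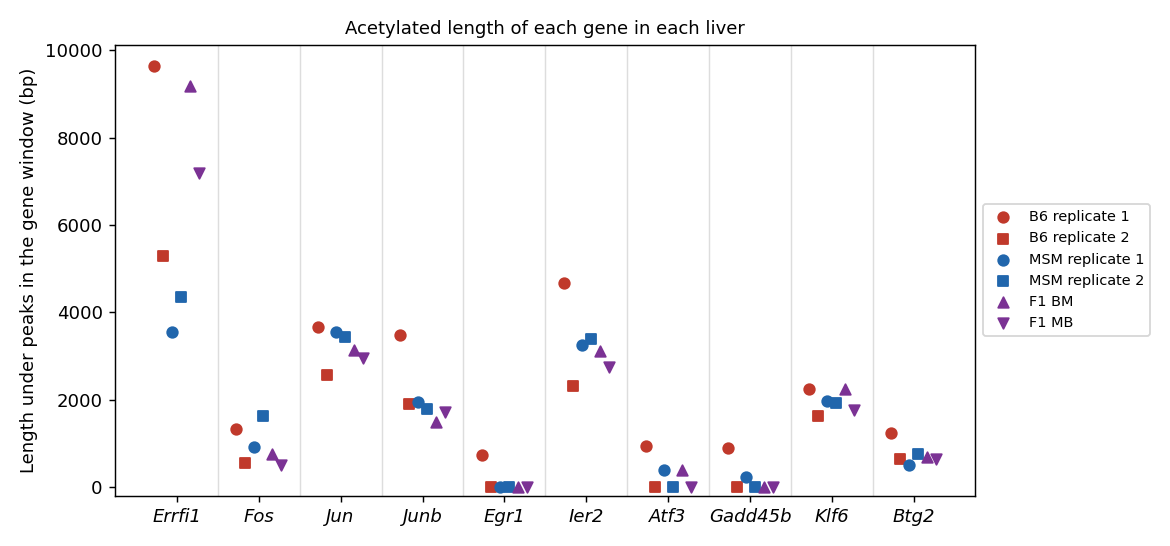
Acetylated length in bp (vertical axis) of each of the 10 genes in each of the 6 livers, 1 point per liver; red is B6, blue MSM and purple the F1 hybrids. Errfi1 is the longest gene within each liver, though in MSM replicate 1 (3556 bp) it is close to Jun (3539 bp). Both B6 points of Errfi1 (5296 and 9648 bp) and both F1 points are above both MSM points (3556 and 4342 bp). The strains overlap at the other genes.

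The AP-1 subunits were examined first. Jun, a DNA-binding subunit of AP-1 dimers (ENSMUSG00000052684.4, chr4:95049034-95052222, - strand), had 3656 and 2561 bp under peaks in the B6 livers, 3539 and 3426 bp in the MSM livers, 3141 bp in F1 BM and 2956 bp in F1 MB. The MSM values lay between the B6 values, and so did those of the hybrids. The MSM mean was 374 bp above the B6 mean, which was less than the pooled SD of 550.4 bp (exact permutation p = 1, n = 2 per strain). A block upstream of the start and a block over the transcribed part were present in every list, with 2364 bp common to all 6, and the highest peak ranked between percentiles 88.4 and 98.9 of its own list by fold enrichment. The highest summit was on the transcribed side (+299 to +349 bp) in both B6 and F1 MB and on the upstream side (-754 to -899 bp) in both MSM and F1 BM. Junos, an antisense transcript, starts 688 bp inside Jun and runs upstream, so peaks on that side of its start cannot be assigned to one of the genes. The common segment from 1720 to 1960 bp overlaps Jun alone.

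Junb, a Jun relative that weakens its activity in many settings (ENSMUSG00000052837.6, chr8:84974484-84978718, - strand), had 3478 and 1904 bp in B6, 1939 and 1792 bp in MSM, 1477 bp in F1 BM and 1715 bp in F1 MB. B6 replicate 1 was high, and B6 replicate 2 lay between the MSM livers. The difference of the means, -825.5 bp in MSM relative to B6, was near the pooled SD of 790.4 bp (exact permutation p = 0.6667, n = 2 per strain). When each length was divided by the covered length of its list, a scaling added after the data were seen, the B6 values of 217.1 and 303.4 bp per Mb both exceeded the MSM values of 200.7 and 185 bp per Mb, a pattern shared by 15.6% of all genes. The sequence common to all 6 lists, 920 bp in a pair of segments, lay inside the gene between 110 and 1150 bp after the start. Both B6 lists and neither MSM list covered 373 bp, of which 202 bp lay in the 3′ part of the transcript and 108 bp upstream, and F1 BM and F1 MB covered 144 and 245 bp of these.

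Fos, the partner of Jun in the classical AP-1 dimer (ENSMUSG00000021250.13, chr12:85473890-85477273, + strand), had short peaks. They covered 1318 and 542 bp in B6, 921 and 1632 bp in MSM, 762 bp in F1 BM and 499 bp in F1 MB. The strains overlapped, and the hybrids were at the lower end. The MSM mean was 346.5 bp higher, within the pooled SD of 526.2 bp (exact permutation p = 0.6667, n = 2 per strain). Per Mb of covered length the MSM values (95.31 and 168.5 bp) exceeded the B6 values (82.25 and 86.36 bp), as was so for 17.1% of all genes. A pair of short segments was common to all 6 lists, 235 bp from -305 to -71 and 216 bp from -1487 to -1272 bp from the start. The first of them covers the TGACG at -129 of the printed promoter and ends before that at -66. The start base itself was under a peak in 1 list, MSM replicate 2. The highest peak ranked between percentiles 51.0 and 81.4 of its list, lower than Jun in every list.

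**Figure D2:**
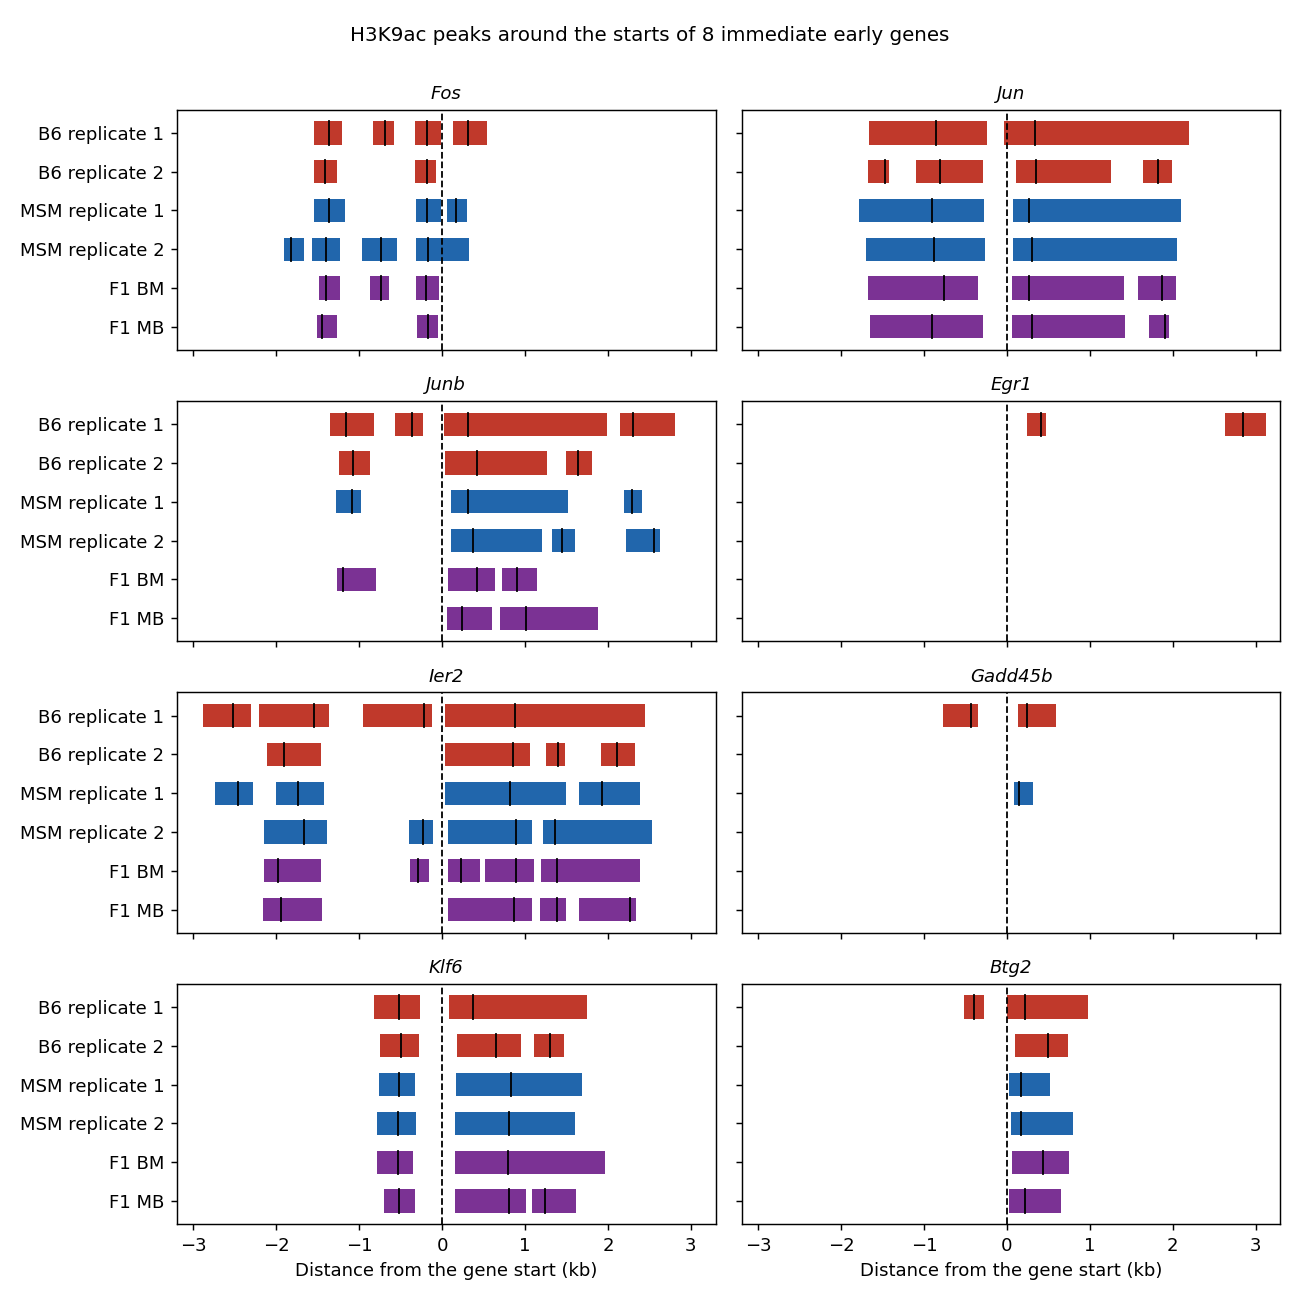
Position of each H3K9ac peak (bars) and its summit (black tick) in kb from the gene start (dashed line), with downstream positive, for Fos, Jun, Junb, Egr1, Ier2, Gadd45b, Klf6 and Btg2 in each of the 6 lists. Jun, Ier2 and Klf6 show blocks on both sides of a start that is mostly free of peaks, and Egr1 and Gadd45b have peaks in 1 and 2 lists.

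Ier2, Klf6 and Btg2 were acetylated in every liver and did not separate the strains. Ier2, which encodes a nuclear protein of the early response (ENSMUSG00000053560.4, chr8:84661331-84662852, - strand), had 4671 and 2321 bp in B6, 3246 and 3396 bp in MSM, 3105 bp in F1 BM and 2737 bp in F1 MB. The MSM values lay between the B6 values (difference -175 bp, pooled SD 1177 bp, exact permutation p = 1, n = 2 per strain). The peaks lay over most of the short gene and past its end, with gaps in several lists, with 2132 bp in 5 segments common to all lists, including an upstream segment of 544 bp from -2007 to -1464.

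Klf6, a zinc finger transcription factor (ENSMUSG00000000078.7, chr13:5861482-5870394, + strand), had upstream and transcribed blocks in every list. Its acetylated length was 2232 and 1619 bp in B6, 1959 and 1912 bp in MSM, 2235 bp in F1 BM and 1769 bp in F1 MB. The means differed by 10 bp with a pooled SD of 307.4 bp (exact permutation p = 1, n = 2 per strain). When the lists were limited to the same covered length, the MSM mean was 847.5 bp above the B6 mean, without overlap. In every list the highest peak was the upstream one, with its summit between -533 and -493 bp from the start, and it ranked between percentiles 83.6 and 97.4 by fold enrichment.

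Btg2, an antiproliferative protein that recruits the mRNA deadenylase complex (ENSMUSG00000020423.6, chr1:134075170-134079120, - strand), had 1226 and 633 bp in B6, 496 and 743 bp in MSM, 684 bp in F1 BM and 627 bp in F1 MB. Apart from the high B6 replicate 1, the livers were alike (difference -310 bp, pooled SD 321.2 bp, exact permutation p = 0.6667, n = 2 per strain). A single segment of 415 bp, from 101 to 515 bp after the start, was under a peak in all 6 lists, so the TGACGTCA of the printed promoter was outside the common segment.

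The start base itself was under no peak in any list at Junb, Ier2 and Klf6, 3 of the 7 genes with a peak within 1 kb in all lists. Among all such genes the share was 43.8%.

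**Figure D3:**
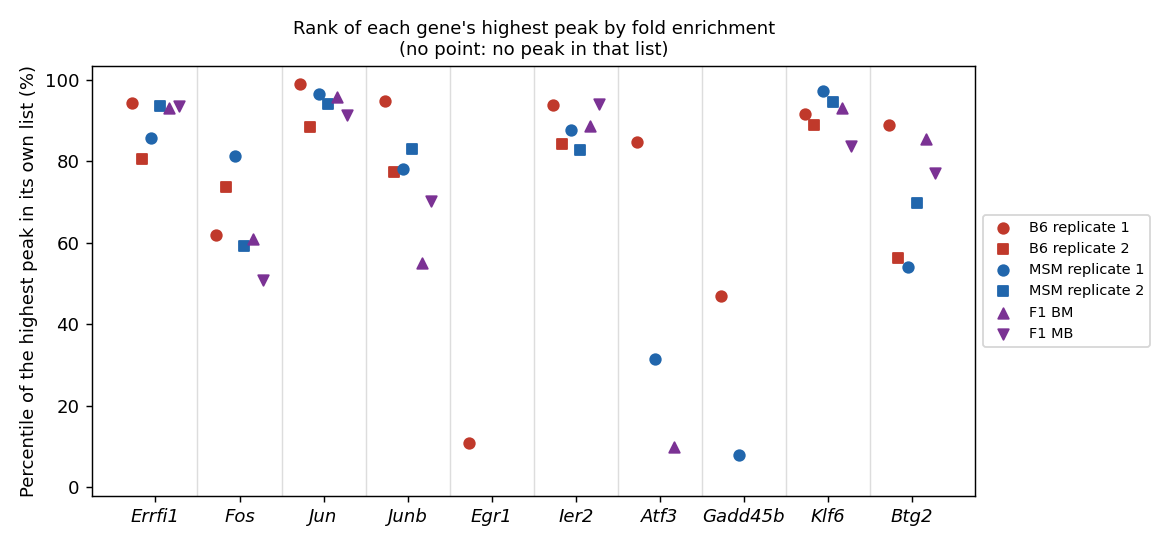
Percentile of each gene's highest peak by fold enrichment among all peaks of the same list (vertical axis, %), 1 point per liver and none where no peak was listed. Jun lies between 88.4 and 98.9, Fos and Btg2 spread lower, and the peaks of Egr1 and Gadd45b lie below the median of their lists.

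Atf3, Gadd45b and Egr1 had peaks in few livers. Atf3, a stress-induced repressor (ENSMUSG00000026628.13, chr1:191170296-191218039, - strand), had 936 and 0 bp in B6, 394 and 0 bp in MSM, 389 bp in F1 BM and 0 bp in F1 MB. The peaks were not at the annotated gene start. They lay between 33907 and 35419 bp inside the gene, and the RefSeq start of Atf3 is 34706 bp inside it. Their highest fold enrichments were 9.119 in B6 replicate 1, 4.19 in MSM replicate 1 and 2.466 in F1 BM. Gadd45b, a stress sensor that acts on p38 and JNK signaling (ENSMUSG00000015312.9, chr10:80930073-80932204, + strand), had peaks of 881 bp in total in B6 replicate 1 and of 224 bp in MSM replicate 1, and no peak in the others. Egr1, a zinc finger factor and one of the first genes induced in regenerating liver (ENSMUSG00000038418.7), had 728 bp in B6 replicate 1 only, in a pair of weak peaks with fold enrichments of 2.638 and 3.301. With 0 bp taken as the value where no peak was listed, the strains overlapped, and at none of the 3 genes did both livers of a strain have a peak. B6 replicate 1, where all 3 genes had a peak, had the longest list and the highest endothelial marker sum (6571 bp), and B6 replicate 2, where none had, had the shortest list and an endothelial sum of 0 bp. MSM replicate 1 had Atf3 and Gadd45b peaks with an endothelial sum of 956 bp, below the 3026 bp of MSM replicate 2, which had none of the 3. F1 BM, with 20173 peaks and an endothelial sum of 6428 bp, had a peak at Atf3 only. F1 MB, with 13235 peaks and an endothelial sum of 1240 bp, had none of the 3. The part of list size and endothelial cells in these peaks was not tested.

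Errfi1 (ENSMUSG00000028967.10, chr4:150853919-150868892, + strand) had the longest acetylated sequence of the 10 genes in every liver. It measured 9648 and 5296 bp in B6, 3556 and 4342 bp in MSM, 9193 bp in F1 BM and 7197 bp in F1 MB. Both B6 livers and both hybrids exceeded both MSM livers. The B6 mean was 7472 ± 3077 bp and the MSM mean 3949 ± 555.8 bp (SD, n = 2 each), and MSM relative to B6 differed by -3523 bp. Leaving out B6 replicate 1 gave -1347 bp, and leaving out B6 replicate 2 gave -5699 bp. Divided by the covered length of the list, the values were 602.1 and 843.9 bp per Mb in B6, 368 and 448.3 in MSM, 749.8 in F1 BM and 965.2 in F1 MB. This scaling, added after the data were seen, raises the values of the shorter lists. Within 5 kb of the start, Errfi1 ranked above 97.9% of the genes with a peak there in MSM replicate 1, its lowest rank, and above 99.99% in F1 MB, its highest. With the gene body alone as window, the strains overlapped at Errfi1 (difference -1420 bp). The fold enrichment of the highest peak did not separate the strains either. It was 12.26 and 6.113 in B6, 7.801 and 9.995 in MSM, 6.309 in F1 BM and 8.566 in the F1 MB liver.

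The domain at the gene start, made by joining peaks up to 500 bp apart, was what set Errfi1 apart for selection. The domain of B6 replicate 1 was 11191 bp wide, from -3787 to 7403 bp. That of B6 replicate 2 was 1517 bp wide and lay wholly upstream, from -1637 to -121 bp. Those of the MSM livers were 512 and 3798 bp wide and began 387 and 400 bp downstream of the start. The domain of B6 replicate 2 therefore ended before the MSM domains began. The domain ran from -3765 to 6638 bp in F1 BM, and that of F1 MB from -2312 to 5003 bp. Among 5186 genes with a domain at the start in all 4 parental lists, 4.42% had no base common to the 4. The B6 domain reached further upstream in both livers at Errfi1, as at 19.6% of these genes. Junb was the other member with a further reach in B6. Its domain reached 1348 bp upstream in B6 replicate 1, but began 40 bp inside the gene in B6 replicate 2 and 103 and 110 bp inside it in the MSM livers. The mean difference of -760.5 bp became -73.5 bp without joining of peaks or with equal peak numbers and -1401 bp when peaks up to 1000 bp apart were joined. Furthermore, Jun reached further in MSM by 71.5 bp on average (6.29% of genes), a difference that became -28.5 bp when peaks were not joined.

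**Figure D4:**
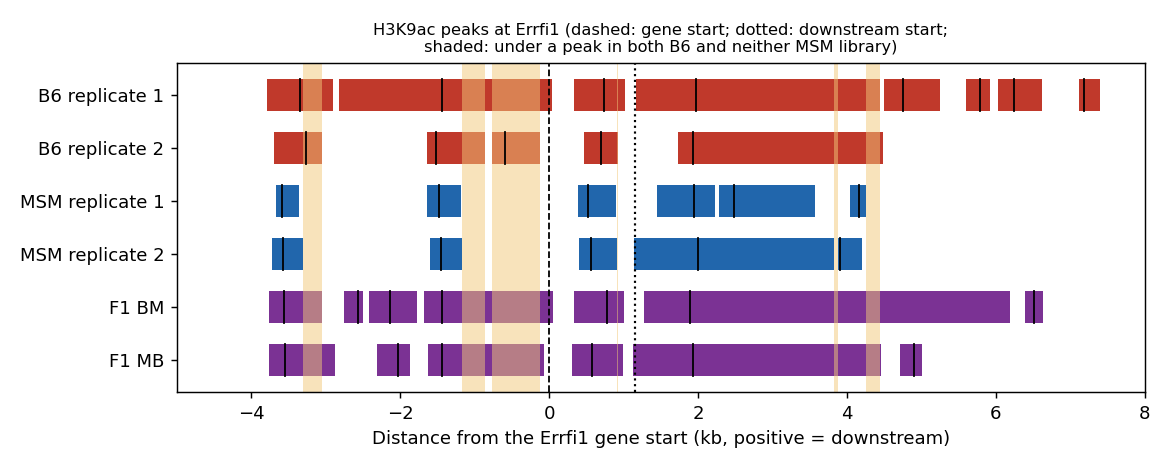
H3K9ac peaks (bars) and summits (black ticks) at Errfi1 in each of the 6 lists, in kb from the gene start (dashed line), with the downstream start dotted and sequence under a peak in both B6 and neither MSM list shaded. All lists share 6 segments, whereas the shaded sequence of 1473 bp in all is also under peaks of both hybrids.

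The lack of a common domain did not mean a lack of common peaks. All 6 lists shared 3093 bp at Errfi1 in 6 segments: from -3665 to -3363, from -1593 to -1186, from 465 to 898, from 1730 to 2226, from 2285 to 3578 and from 4041 to 4197 bp from the gene start. The 434 bp segment from 465 to 898 lay just before the CpG-rich promoter printed above as the downstream start. When the domain was taken from the downstream GENCODE start, 1154 bp inside the gene, the 4 parental domains had 434 bp in common. The upstream reach from there was 4941 and 689 bp in B6 and 767 and 754 bp in MSM, so that the strains overlapped. The absence of a common domain thus depended on which start was used. The segment from 1730 to 2226 overlapped an exon, and the last pair of segments lay in introns of Errfi1. The upstream segments were within 1700045H11Rik, an antisense transcript that starts 1030 bp inside Errfi1 and runs away from it. The segment from 465 to 898 lay in introns of both transcripts. Peaks carry no strand, so those upstream of Errfi1 and over that segment cannot be assigned to either transcript.

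Sequence under peaks in both B6 livers and in neither MSM liver summed to 1473 bp at Errfi1, and none was under peaks in both MSM livers and neither B6 liver. These positions chose the gene, so the lengths are a description only. The longest pieces were upstream: 649 bp at chr4:150853150-150853798, 312 bp at chr4:150852745-150853056 and 260 bp at chr4:150850617-150850876 (mm10), with 182 and 55 bp in the first part of the gene body. The piece of 649 bp ends 121 bp before the gene start and overlaps the CpG-poor upstream promoter printed above. Each long piece adjoined or extended a block that MSM also had, except the piece of 649 bp, which was a peak of its own in B6 replicate 2 (fold enrichment 3.563) and part of a wider peak in B6 replicate 1. F1 BM covered 1471 bp and F1 MB 1472 bp of the B6-only sequence. Both hybrids carry a B6 and an MSM copy, and the copies were not separated here. Both hybrid livers exceeded both MSM livers in total length at 1 of the 10 genes, Errfi1 itself (10.4% of all genes).

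The share of bases masked as repeats in the reference was 64.6%, 59.9% and 21.3% in the B6-only pieces of 260, 312 and 649 bp, 100% in the piece of 55 bp and 11.5% in that of 182 bp. In the 6 segments shared by all lists it was between 3.96% and 19.8%, and in the whole window 16.3%. MSM reads were mapped to the B6 sequence, and the part of mapping over repeats in the B6-only pieces was not tested.

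The genes whose acetylated length followed the livers most like that of Errfi1 were St3gal5, Cbs, Dcps, Gls2 and Rtp4. The measure was the Euclidean distance between centered percentiles of length over the 6 livers, computed for 8728 genes. St3gal5, the synthase of the ganglioside GM3, was nearest, at a distance of 0.6092, with 8242 and 4241 bp in B6, 3295 and 3974 bp in MSM, 6430 bp in F1 BM and 4755 bp in F1 MB. The others lay at distances from 1.332 (Cbs, the first enzyme of transsulfuration) to 1.687 (Rtp4). Of these genes St3gal5, Cbs and Dcps had both B6 and both hybrid livers above both MSM livers, whereas the B6 and MSM livers overlapped at Gls2 and Rtp4. The genes were picked for likeness over the same livers, so this order is a description and follows in part from the choice.

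Other genes of the early response and of the EGFR pathway were taken from a pair of lists. Of 45 further immediate early genes, 27 had a peak in all 6 livers and 6 had none, against 28.5% and 47.2% of all genes. Among the 39 with a parental peak, 3 were longer in both B6 livers and 0 in both MSM livers, against the 11.6% and 4.97% of all genes. These were Klf10, a transcription factor induced by transforming growth factor beta, with 3387 and 1096 bp in B6 and 800 and 697 bp in MSM, the clock gene Per1 with 4392 and 3168 bp against 2759 and 3061 bp, and Socs3, a suppressor of cytokine signaling, with 1448 and 664 bp against 648 and 444 bp. The gap between the nearest livers of the strains was 296, 107 and 16 bp. F1 BM and F1 MB had 603 and 232 bp at Klf10, below both MSM livers, 3491 and 3493 bp at Per1, above both MSM livers, and 642 and 612 bp at Socs3, between the MSM livers.

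Of 22 genes of the EGFR pathway, whose receptors Errfi1 inhibits, 13 had a peak in all livers (28.5% of all genes) and 3 (Erbb2, Areg and Ereg, named after their values were seen) had none. Among 19 with a parental peak, 1 was longer in both B6 livers (11.6% of all genes) and 1 in both MSM livers (4.97% of all genes). Shc1, an adaptor of the receptor, had 1658 and 1585 bp in B6 and 1277 and 1021 bp in MSM. Tgfa, a ligand of the receptor, had 1004 and 445 bp in B6 and 1385 and 1300 bp in MSM. Egfr, also named after its values were seen, had 5222 and 2982 bp in B6, 3458 and 3516 bp in MSM, 7110 bp in F1 BM and 3056 bp in F1 MB, so its strains overlapped.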

How the data were processed

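Liver chromatin of 6 mice was analyzed by H3K9ac ChIP-seq, and the 6 input libraries in the labels were not analysed here. The authors fixed tissue with formaldehyde, sequenced paired reads, trimmed them with Trim Galore and mapped them to mm10. Their methods name Bowtie 2, whereas the submitters' processing notes list HISAT2, SAMtools and MACS2. The peak threshold and the use of input are not given in the sources used here. The deposited lists hold 1 row per peak with its fold enrichment (a ratio to background), −log10 p and −log10 q, and a score, as the authors' caller wrote them. The lowest −log10 q of the lists lay between 1.302 and 1.352. Each list was called on 1 library, and values were not rescaled.

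Peaks were assigned to a gene by an overlap of at least 1 bp with the window (gene body and 5 kb around the GENCODE M21 start), and their length was clipped to it. Peaks up to 500 bp apart were joined into domains, and the domain nearest the start within 500 bp was used. Groups and replicate numbers came from the sample titles, and the replicates of a strain were different animals. Strains were compared by whether both livers of one exceeded both of the other, and by an exact two-sided permutation test of the mean over the 6 assignments of 4 livers, without a model or adjustment. Scripts used Python 3.11.15, numpy 2.4.6 and matplotlib 3.10.9 and were tested on simulated data. The members, lists and tests were chosen with earlier results of these data known. All 10 members were named. From the wider lists at most the 6 genes with the widest gap between strains in each direction were named, and the 5 genes most like Errfi1 were taken among those with a peak in at least 4 lists. Alternatives were other windows, joining distances, a −log10 q of at least 3, equal peak numbers or covered lengths, a replicate block and leaving out each liver. Precision is limited by the 2 livers per strain, and read depth was not used here.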

Additional observations from a re-analysis of the deposited data

How the results depend on the processing

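Both B6 livers exceeded both MSM livers at 1 of the 10 genes, Errfi1, and at 0 of the 9 immediate early genes. Errfi1 was chosen by its parental peaks, so the counts over the 10 genes in this section are a description without a test. The count over the 10 became 2 with the same number of peaks or the same covered length in every list and with a window of 2 kb. It was also 2 with length divided by covered length (added after the data were seen), in each case by the addition of Junb. The shares of all genes longer in B6 were then 19.32%, 15.55%, 12.44% and 15.59%, against 11.56% in the main setting. It was 0 with the gene body alone, where Errfi1 no longer separated the strains and 11.72% of all genes were longer in B6. The count of genes longer in MSM, 0, became 1 with equal peak numbers, with a −log10 q of at least 3 and per covered length (Fos), and 2 with equal covered length (Fos and Klf6), where the shares of all genes were 8.866%, 4.942%, 17.1% and 17.46%. Under equal covered length the difference at Klf6 was 847.5 bp. Leaving out each liver in turn gave 1 to 9 genes longer in B6 and 0 to 4 longer in MSM. The 9 arose without B6 replicate 2, when 84.16% of all genes were longer in B6, and the 4 (Fos, Jun, Ier2 and Klf6) without B6 replicate 1, when 61.24% of all genes were longer in MSM. At Errfi1 both B6 livers exceeded both MSM livers, so it had to be longer in B6 without any 1 liver, and only the size could change. The difference was then between -5699 and -1347 bp. It was -1202 bp with the window of 2 kb and -1420 bp with the gene body alone. The upstream reach of Jun, 71.5 bp further in MSM, became -28.5 bp without joining of peaks. With equal peak numbers, the reach difference at Ier2 went from -1244 bp with overlap to 218.5 bp, further in MSM without overlap. The difference at Fos, 173.5 bp with overlap, became -8.5 bp without joining or with equal peak numbers, further in B6 without overlap. Under the same settings that at Btg2 went from -246.5 to 14.5 bp, with overlap throughout. The cause of these changes was not tested.

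With a replicate block, in which livers of the same number were compared, 2 genes (Errfi1 and Junb) were longer in B6 in both pairs and 0 in MSM, against 17.2% and 8.073% of all genes. For Errfi1 this was fixed by the main pattern. The numbers only name the livers, and the deviations of same-numbered livers from their strain means had a correlation of 0.083 over 11446 genes. A peak absent from a list may have been too weak for its depth.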

Other observations

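Outside the gene windows, acetylated regions within 50 kb of the start and not within 1 kb of the start of any protein-coding gene were found for 7 of the 10 genes, against 23% of all protein-coding genes. They were present in all 6 livers for 2 of the 10, Fos and Atf3, against 4.25% of all genes. A region from -18336 to -17771 bp of Fos (chr12:85455554-85456119) had a peak in all 6 livers, with 433 and 300 bp in B6, 272 and 387 bp in MSM, 550 bp in F1 BM and 261 bp in F1 MB. A region upstream of Atf3, from -7073 to -5994 bp (chr1:191224033-191225112), was also acetylated in all 6, with 1045 and 459 bp in B6, 433 and 794 bp in MSM, 365 bp in F1 BM and 318 bp in F1 MB. Its distance is counted from the annotated gene start, where Atf3 had no peak. The RefSeq start lies 34706 bp inside the gene, further from the region. At Junb a region from -7817 to -6751 bp (chr8:84985469-84986535) had 1067 and 651 bp in B6 and 222 and 298 bp in MSM, without overlap, and no peak in either hybrid. It was the only one of the 9 regions without overlap, and 8.13% of 4094 such regions over all genes were longer in B6 and 9.48% in MSM in this way. Btg2 had 3 such regions, each in at most 4 livers. No region was found near Jun, Klf6 or Egr1. These regions were picked by position and their relation to the genes was not tested.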
